A study of Homo sapiens with 6 samples.

Results

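The genes described here encode the proteins of the cytosolic ribosome. They were chosen by symbol from the array annotation: RPL or RPS followed by a number, with an optional A, L, X or Y, or RPSA, RPLP0, RPLP1 and RPLP2, in probe sets that carry exactly 1 gene symbol. The rule left out the RPS6K kinases and pseudogenes, used no measured value, and found 61 of the 18417 named genes, in 94 probe sets. A gene measured by several probe sets is represented by its brightest one on average. Of the 61 genes, 60 passed a filter at the 25th percentile of mean signal (a log2 signal of 5.80) and were tested: 21 of the small subunit, 34 of the large subunit, 2 of the stalk and 3 paralogs with restricted or stress-induced expression. The paralog RPL39L lay below the filter. A further 11 genes, among them RPL13A, RPS10 and RPS26, fit the rule only in probe sets of several symbols, so no value is given for them. RPSA and RPLP0 were not analysed here.

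The 6 arrays hold total RNA of 92.1, Mel 270 and Mel 290, which are 3 established human uveal melanoma lines, each grown alone and with activated T cells. Uveal melanoma is a cancer of the pigment cells of the eye. All cells were kept for 64 h in a serum-free medium after 80000 cells of 92.1 or 100000 cells of Mel 270 or Mel 290 had been plated. In co-culture, 1500000 T cells per well from volunteers, activated with CD3/CD28 beads, sat in 3 ml of medium on an insert with pores of 0.4 µm, so that soluble factors but not cells could pass. The comparison asks how melanoma cells respond to factors from activated T cells. Each line was hybridised once per condition, so a line is the replicate, and a difference within a line has no replicate check. Whether wells without T cells held an insert or beads is not given in the sources used here.

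CD3D, CD3E and CD3G, which define T cells, reached a log2 signal of at most 5.70 on any array. Over 12 T cell markers the mean signal was 5.23 to 5.33 alone and 5.29 to 5.45 in co-culture; 3 of them passed the filter and 0 were called. The melanocyte genes MLANA, PMEL, TYR and TYRP1 were low in Mel 290, where MLANA read 4.92 alone and 5.05 in co-culture, against 11.25 to 12.46 in the other lines. The melanocyte regulators SOX10 and MITF were not at the bottom of the scale there: SOX10 read 6.84 alone and 7.25 in co-culture, and MITF 8.96 and 8.16. The pigment genes thus go against the labelled cell type in that line, while these regulators had a signal above the filter. MITF was lower in co-culture in each line, by -0.79 in 92.1, -2.10 in Mel 270 and -0.80 in Mel 290. In the same order TYR differed by -1.57, -2.10 and -0.15, and MLANA by -0.25, -1.20 and 0.13. S100B differed by 0.05, -2.86 and 0.02, and SOX10 by -0.06, -0.47 and 0.41. Of the 6 melanocyte markers above the filter, 0 were called, where 0.0362% of all tested genes were called lower and 0.413% higher. The part of these markers in the differences of the ribosomal protein genes was not tested. In such bulk samples, fewer cells of a type and less RNA per cell cannot be told apart.

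The ribosome consists of a small subunit, which reads the mRNA, and a large subunit, which joins amino acids and releases the chain through an exit tunnel. Most of its proteins are needed in about the same amount as each other. Many of their mRNAs begin with a C followed by a run of pyrimidines, the terminal oligopyrimidine (TOP) tract, through which mTOR signalling and the protein LARP1 govern translation and mRNA stability. Transcription of the genes and of ribosomal RNA is promoted by MYC. Dividing tumour cells make many ribosomes.

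The start of the transcript is shown for members with some of the lowest values in co-culture relative to growth alone, for RPS6 as a target of the mTOR pathway, and for 3 members without the tract. The sequences are from RefSeq on build GRCh38.p14, 5′ to 3′ on the transcript's strand, with 10 bases before the annotated start and 20 from it. Capitals mark the tract, defined as C at the start and at least 4 further bases that are each C or T.
RPS23: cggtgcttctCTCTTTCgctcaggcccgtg
RPS24: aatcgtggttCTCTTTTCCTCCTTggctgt
RPL7A: attccctttcCTTTCTCTCTCCTCCCgccg
RPL37A: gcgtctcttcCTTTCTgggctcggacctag
RPS6: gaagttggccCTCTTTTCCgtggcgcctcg
RPS27L: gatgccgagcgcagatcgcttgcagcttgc
RPL10L: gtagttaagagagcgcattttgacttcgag
RPS7: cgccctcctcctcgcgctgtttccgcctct

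These windows lie at chr5:82278335-82278364 on the minus strand for RPS23, chr10:78033853-78033882 on the plus strand for RPS24, chr9:133348208-133348237 on the plus strand for RPL7A and chr2:216498834-216498863 on the plus strand for RPL37A. Those of the others are chr9:19380217-19380246 on the minus strand for RPS6, chr15:63157458-63157487 on the minus strand for RPS27L, chr14:46651762-46651791 on the minus strand for RPL10L and chr2:3575250-3575279 on the plus strand for RPS7. Each covers the junction of promoter and first exon. The tract ran over 16 bases in RPL7A, 14 in RPS24, 9 in RPS6, 7 in RPS23 and 6 in RPL37A. A listed start was at hand for 50 of the 61 members, and 36 of those (72.0%) had a tract at one of their starts, against 5.14% of the 27305 genes and 4.07% of the 35116 starts in the table. The 14 members with a listed start and no tract at it were RPL10A, RPL10L, RPL17, RPL19, RPL27, RPL3, RPL32, RPL4, RPS15, RPS27L, RPS28, RPS29, RPS4X and RPS7. An annotated start can be some bases off the start used in these cells, so a missing match says only that these letters are not at the listed base.

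Most ribosomal protein genes had a lower signal in co-culture than alone, by a small amount, and none passed the test. In the text that follows, a difference is the log2 signal in co-culture minus that alone in the same line. The median difference over the 60 tested genes was -0.18 in 92.1, -0.29 in Mel 270 and -0.34 in Mel 290, and -0.27 for the mean of the lines, which is a signal 17.1% lower, with an SD of 0.08 between the line medians (n = 3). Over all 13808 tested genes the medians were -0.08, -0.06 and 0.01, and -0.04 for the mean of the lines. Of the other genes with a mean log2 signal of 10 or more, of which there were 968, the medians were -0.11, 0.00 and -0.13, and -0.06 for the mean of the lines. Under cyclic loess scaling of the arrays the median of the ribosomal protein genes was -0.17, below 0 in each line as in every scaling tried.

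**Figure D1:**
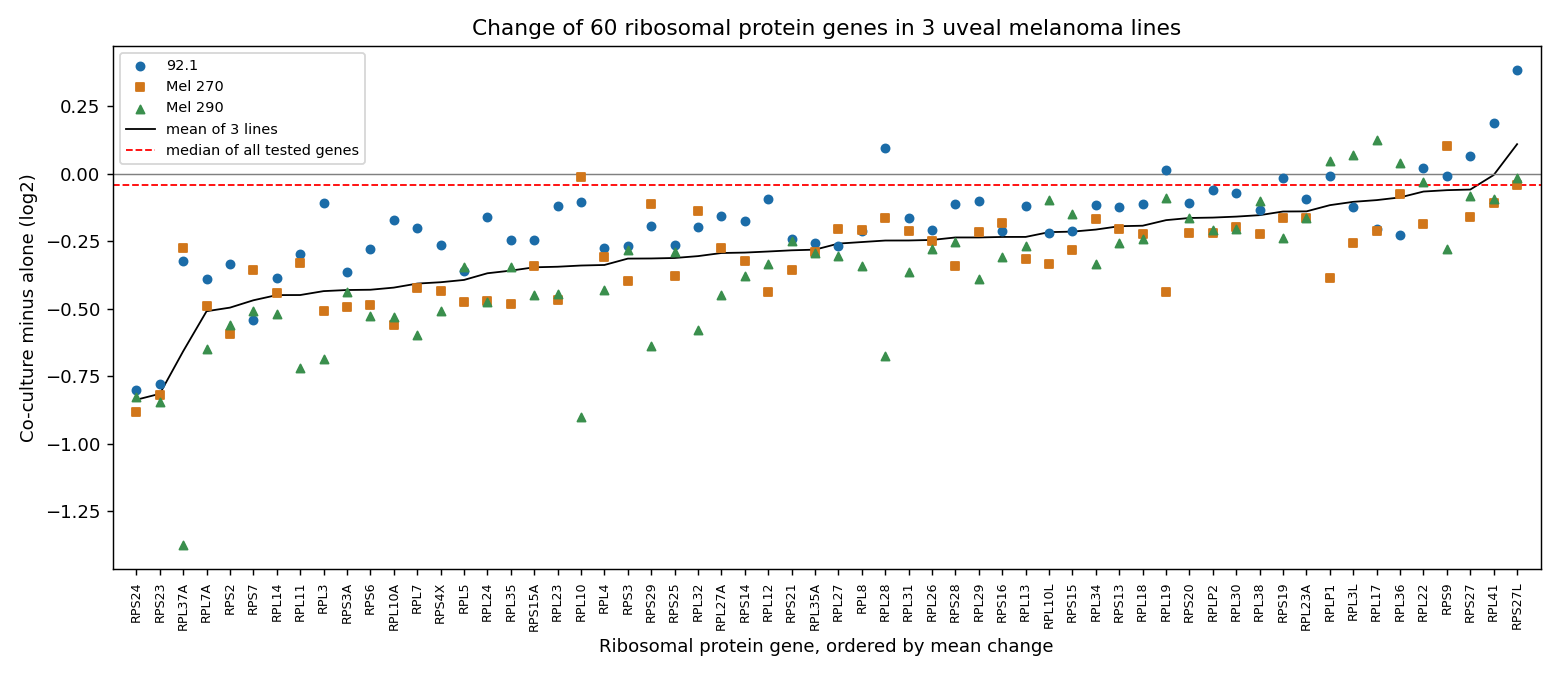
Log2 signal in co-culture minus that alone (y axis) for the 60 tested ribosomal protein genes, ordered by their mean over lines (x axis); points are single lines, the black line is their mean and the dashed line the median of all tested genes at -0.04. RPS24 and RPS23 stand at the left end with 3 points close together, RPL37A has 1 point far below the others, and RPS27L at the right end is the gene whose mean lies above 0.

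Of the 60 genes, 54 were lower in 92.1, 59 in Mel 270 and 56 in Mel 290, against 60.1%, 57.3% and 49.2% of all tested genes, and 49 of 60 were lower in all 3 lines, against 25.5% of all tested genes. Of the 60, 0 were higher in all 3 lines, against 16.2% of all tested genes. The 11 that were not lower in every line were RPL17, RPL19, RPL22, RPL28, RPL36, RPL3L, RPL41, RPLP1, RPS27, RPS27L and RPS9. Averaged over the lines, 59 were lower, against 57.1% of all tested genes, the exception being RPS27L. Among the genes the spread was narrow: the interquartile range of their differences was 0.16 in 92.1, 0.23 in Mel 270 and 0.30 in Mel 290, against 0.45, 0.53 and 0.45 over all tested genes. The median of their mean log2 signals was 11.58, above 99.04% of tested genes, whose median was 7.76. The spread of other genes with such a high signal is not given here, so the part of signal level was not tested.

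By limma with Benjamini-Hochberg adjustment over all tested genes, 0 of the 60 passed at 0.05 in either direction, where 0.0362% of all tested genes were called lower and 0.413% higher. At an unadjusted p under 0.05, 21 were lower and 0 higher, against 13.0% and 7.02% of all tested genes. The count of 21 was 9 under cyclic loess, 13 with each array centred on its median, and 8 without 92.1, 6 without Mel 270 and 8 without Mel 290. The share of all tested genes under these settings is not given here, so these counts cannot be set against it. With 3 pairs, the smallest two-sided p that an exact permutation of the conditions within lines can give is 0.25.

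For 22 of the 60 genes the 3 co-culture arrays all lay below the 3 arrays alone, against 5.96% of all tested genes. The count was 12 under cyclic loess, 38 without 92.1 and 39 without Mel 290, where fewer arrays have to lie apart. The share of all tested genes under these settings is not given here. The 22 genes were RPS2, RPS3A, RPS4X, RPS6, RPS7, RPS14, RPS24, RPS25 and RPS29 of the small subunit, RPL4, RPL5, RPL7, RPL12, RPL14, RPL23A, RPL24, RPL27, RPL29, RPL31, RPL34 and RPL35A of the large subunit, and the paralog RPL10L, listed here by that count after their values were seen.

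The lines differed in how many genes passed a fixed fold. At least 1.2-fold lower were 16 of 60 genes in 92.1, 33 in Mel 270 and 39 in Mel 290, against 29.2%, 28.7% and 24.6% of all tested genes, so the share in 92.1 was near that of genes in general. At least 1.2-fold higher were 1 gene in 92.1 (RPS27L), 0 in Mel 270 and 0 in Mel 290, against 17.4%, 22.2% and 17.6%. Under cyclic loess the counts lower were 8, 20 and 22, and with each array centred the count in 92.1 was 9. Under quantile normalization they were 17, 33 and 28, with the most in Mel 270. The shares of all tested genes under these scalings are not given here. A difference of 2-fold or more in any line was seen for 1 of 60 genes, RPL37A in Mel 290, against 14.7% of all tested genes. Whether the lines differ in their response could not be tested with 1 array per line and condition. Across the 60 genes the differences correlated between lines with r = 0.68 for 92.1 and Mel 270, 0.51 for 92.1 and Mel 290 and 0.375 for Mel 270 and Mel 290, where all tested genes gave 0.64, 0.50 and 0.50; genes of an array share its hybridisation and scaling and are not independent.

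The small subunit had a median difference of -0.31 over its 21 genes. Of these, 19 were lower in all 3 lines and 10 were lower at an unadjusted p under 0.05, against 25.5% and 13.0% of all tested genes. RPS24, which is needed to process the precursor of the small subunit's RNA, had the lowest mean difference of the 60. Its log2 signal was 9.77 alone and 8.96 in co-culture in 92.1, 8.99 and 8.11 in Mel 270, and 9.48 and 8.65 in Mel 290. All co-culture arrays lay below all arrays alone, and the mean difference was -0.84 ± 0.04 (SD, n = 3; limma adjusted p = 0.0702). RPS23, a protein of the decoding centre, read 10.07 and 9.29 in 92.1, 8.99 and 8.17 in Mel 270, and 8.82 and 7.98 in Mel 290. Its groups overlapped because 92.1 was high in both conditions, while within every line the co-culture array was lower, by -0.82 ± 0.03 (SD, n = 3; limma adjusted p = 0.0719). For both genes the 3 lines gave nearly the same difference, and both missed the threshold. Their adjusted p ran from 0.06 to 0.999 over the alternatives, with differences from -0.77 to -0.85.

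RPS6, the substrate of the S6 kinases downstream of mTOR, read 12.24 alone and 11.96 in co-culture in 92.1, 12.03 and 11.55 in Mel 270, and 12.19 and 11.66 in Mel 290. All co-culture arrays were below all arrays alone, with a mean difference of -0.43 ± 0.13 (SD, n = 3; limma adjusted p = 0.166). RPS3, which lines the entry of the mRNA channel and is also known as a partner of NF-kappaB in the nucleus, read 12.66 and 12.40 in 92.1, 12.42 and 12.03 in Mel 270, and 12.37 and 12.09 in Mel 290. It was lower within each line, and its groups overlapped by a narrow margin; the mean difference was -0.31 ± 0.07 (SD, n = 3; limma adjusted p = 0.247).

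At the other end of the small subunit stood RPS27, a zinc finger protein, and RPS9, which helps to form the mRNA entry site. RPS27 read 12.38 alone and 12.45 in co-culture in 92.1, 12.30 and 12.14 in Mel 270, and 11.62 and 11.54 in Mel 290. RPS9 read 11.24 and 11.23 in 92.1, 11.44 and 11.55 in Mel 270, and 10.72 and 10.44 in Mel 290. Neither had a common direction, with mean differences of -0.06 ± 0.11 for RPS27 and -0.06 ± 0.20 for RPS9 (SD, n = 3). Under cyclic loess the means were 0.07 and 0.04. A second probe set of RPS9 gave 0.03.

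The large subunit had a median difference of -0.27 over its 34 genes. Of these, 28 were lower in all 3 lines and 11 were lower at an unadjusted p under 0.05, against 25.5% and 13.0% of all tested genes. RPL37A, a zinc-binding protein, varied most between lines. It read 9.81 alone and 9.49 in co-culture in 92.1, 9.39 and 9.12 in Mel 270, and 11.05 and 9.67 in Mel 290. The culture of Mel 290 alone was far above the other 5 arrays, and the differences of the lines lay 1.10 apart, so the mean of -0.66 ± 0.62 (SD, n = 3; limma adjusted p = 0.247) rests largely on that line. RPL10, which joins last and completes the site of peptide bond formation, read 12.38 and 12.27 in 92.1, 12.18 and 12.17 in Mel 270, and 11.52 and 10.61 in Mel 290. Its difference too was large in Mel 290 and small in the other lines, with a mean of -0.34 ± 0.49 (SD, n = 3; limma adjusted p = 0.459).

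RPL7A, which binds the large subunit's RNA, read 11.48 alone and 11.09 in co-culture in 92.1, 10.69 and 10.20 in Mel 270, and 11.07 and 10.42 in Mel 290. It was lower in each line, by -0.51 ± 0.13 on average (SD, n = 3; limma adjusted p = 0.130). RPL41, the shortest ribosomal protein, read 12.46 and 12.65 in 92.1, 12.61 and 12.50 in Mel 270, and 12.54 and 12.45 in Mel 290. It had no common direction, and its mean was -0.0049 as deposited and above 0 under each of the other scalings. Its dimmest probe set gave a mean of -0.18, with -0.54 in Mel 290, and the mean of all its probe sets gave -0.06.

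RPL5 and RPL11 form a particle with 5S ribosomal RNA that can bind MDM2 and so stabilise p53. RPL5 read 12.90 alone and 12.53 in co-culture in 92.1, 12.98 and 12.50 in Mel 270, and 12.94 and 12.60 in Mel 290, with all co-culture arrays below all arrays alone and a mean difference of -0.39 ± 0.07 (SD, n = 3; limma adjusted p = 0.175). Its other probe sets gave smaller mean differences of -0.28 and -0.23, with -0.14 and -0.11 in 92.1. RPL11 read 11.36 and 11.06 in 92.1, 11.44 and 11.10 in Mel 270, and 10.94 and 10.22 in Mel 290. Both conditions were low in Mel 290, so the groups overlapped, and the mean difference was -0.45 ± 0.23 (SD, n = 3; limma adjusted p = 0.190). RPL26, which can bind the mRNA of p53, read 10.07 and 9.86 in 92.1, 10.46 and 10.21 in Mel 270, and 10.39 and 10.11 in Mel 290. It had a mean difference of -0.25 ± 0.04 (SD, n = 3; limma adjusted p = 0.345), alike in the 3 lines. Mutations of 12 of the tested genes cause Diamond-Blackfan anaemia, an inherited failure of red cell formation. Their median difference was -0.27, with 11 of 12 lower in all 3 lines and 4 at an unadjusted p under 0.05, which is close to the values of the 60. Over all tested genes these shares were 25.5% and 13.0%.

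The stalk proteins RPLP1 and RPLP2 recruit the GTPases of translation. RPLP2 was lower in each line, by -0.16 ± 0.09 on average (SD, n = 3), and RPLP1 read 11.91 alone and 11.90 in co-culture in 92.1, 12.10 and 11.72 in Mel 270, and 11.67 and 11.72 in Mel 290, a mean difference of -0.12 ± 0.24 (SD, n = 3). In this probe set the difference of RPLP1 was in Mel 270, with the conditions close together in the other lines. A second probe set of RPLP1 gave -0.03 in 92.1, -0.35 in Mel 270 and 0.17 in Mel 290.

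**Figure D2:**
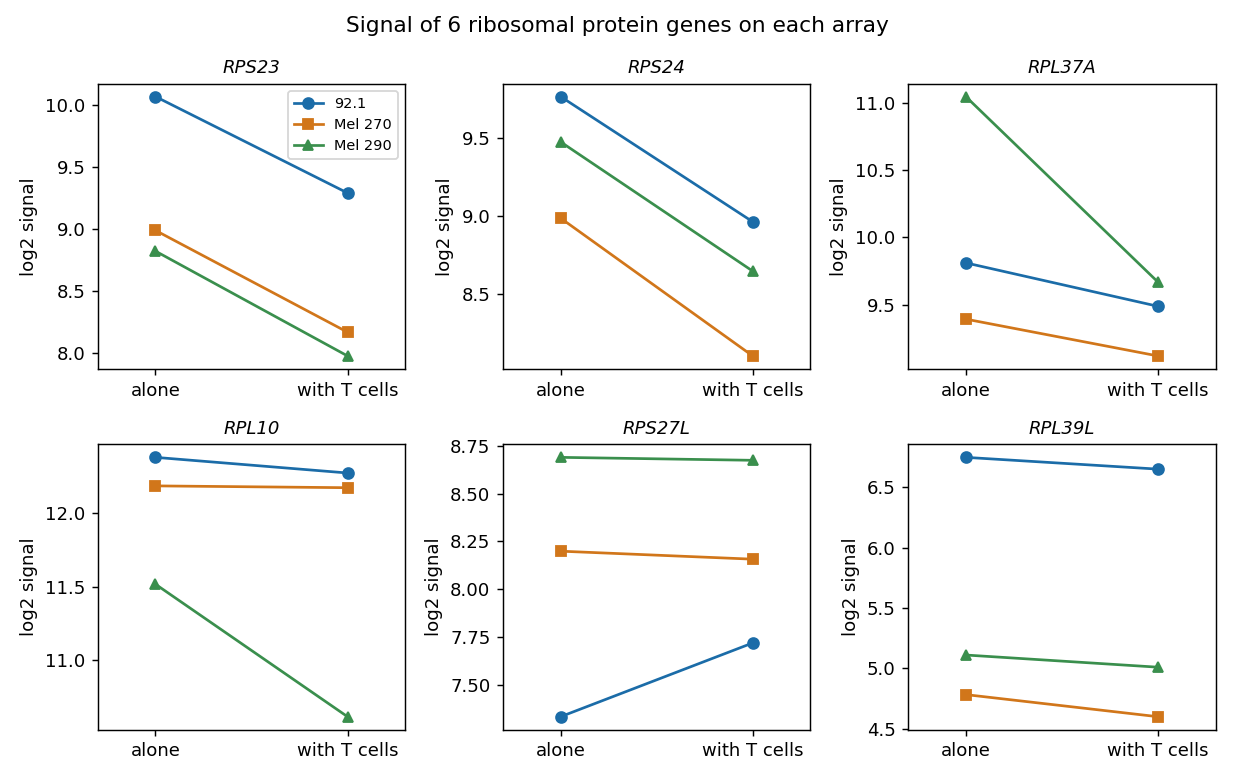
Log2 signal (y axis) of RPS23, RPS24, RPL37A, RPL10, RPS27L and RPL39L in each line alone and with T cells (x axis), 1 array per point, with a line joining the arrays of a cell line. The lines run parallel and downward for RPS23 and RPS24, drop steeply in Mel 290 alone for RPL37A and RPL10, and go up in 92.1 alone for RPS27L.

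The paralogs did not follow one pattern. RPS27L, a relative of RPS27 that p53 induces, read 7.34 alone and 7.72 in co-culture in 92.1, 8.20 and 8.16 in Mel 270, and 8.69 and 8.67 in Mel 290. It was higher in co-culture in 92.1 and within 0.04 of its level alone in the other lines, with a mean difference of 0.11 ± 0.24 (SD, n = 3; limma adjusted p = 0.758) that was -0.03 without 92.1. RPL10L, best known from testis, read 6.83 and 6.61 in 92.1, 6.96 and 6.62 in Mel 270, and 6.72 and 6.63 in Mel 290. RPL3L, best known from muscle, read 7.27 and 7.15 in 92.1, 7.41 and 7.15 in Mel 270, and 7.23 and 7.30 in Mel 290. Both sat low on the scale, and their mean differences were -0.22 ± 0.12 and -0.10 ± 0.16 (SD, n = 3). RPL39L, which is below the filter by its mean, read 6.75 and 6.65 in 92.1, 4.78 and 4.60 in Mel 270, and 5.11 and 5.01 in Mel 290. It was above the filter level in 92.1 and below it in the other lines, whatever the culture.

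Members with a tract at a listed start and members without one had similar values. The 36 tested genes with a tract had a median difference of -0.26, with 29 lower in all 3 lines, and the 14 without one had -0.28, with 11 lower in all 3 lines. Of all tested genes, 25.5% were lower in all 3 lines. Within the lines the medians were -0.16, -0.27 and -0.32 with a tract and -0.20, -0.32 and -0.37 without, in the order 92.1, Mel 270 and Mel 290. RPS7, without a tract, was among the genes whose groups did not overlap, as was RPS24 with a tract of 14 bases.

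Other genes that build or run ribosomes were set beside the ribosomal proteins, and 0 genes of any of the 6 lists passed the adjusted test. Relatives outside the rule, 5 genes tested, had a median difference of -0.28, and 2 were lower at an unadjusted p under 0.05, against 13.0% of all tested genes. RPL22L1, a paralog of RPL22 that can replace it, read 8.33 alone and 7.73 in co-culture in 92.1, 6.10 and 5.06 in Mel 270, and 7.92 and 7.15 in Mel 290. It was lower in each line by -0.81 ± 0.22 on average (SD, n = 3; limma adjusted p = 0.0852), while RPL22 itself differed by -0.07 ± 0.11 (SD, n = 3). The next lowest relative was RPL7L1, at -0.37 ± 0.08, and the highest were FAU, whose product is cleaved to give a small subunit protein, at -0.22 ± 0.12, and RPL36AL, at -0.21 ± 0.21 with 0.01 in Mel 290 (SD, n = 3). Translation factors and other mRNAs with a TOP tract, 20 genes, had a median of -0.32, with 7 lower and 0 higher at an unadjusted p under 0.05, against 13.0% and 7.02% of all tested genes. The lowest were EIF3L, a subunit of initiation factor eIF3, at -0.73 ± 0.15 and EIF4B, a helper of the initiation helicase, at -0.68 ± 0.17, and the highest were TPT1 at -0.04 ± 0.09 and EIF4A2 at 0.11 ± 0.20 (SD, n = 3). Of the 20, 16 were lower in all 3 lines, against 25.5% of all tested genes.

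Ribosome biogenesis, 56 genes tested, had a median difference of -0.38, with 30 lower and 1 higher at an unadjusted p under 0.05, against 13.0% and 7.02% of all tested genes. By line the medians were -0.47 in 92.1, -0.46 in Mel 270 and -0.29 in Mel 290, while the ribosomal proteins as deposited had their lowest median in Mel 290. Under quantile normalization the lowest median of the ribosomal proteins was in Mel 270, at -0.28 against -0.26 in Mel 290. POLR1B and POLR1E, subunits of RNA polymerase I, which makes the ribosomal RNA, were the lowest at -1.20 ± 0.64 and -1.01 ± 0.44, with limma adjusted p = 0.107 and 0.0941 (n = 3). RRN3, which brings that polymerase to its promoter, was the highest at 0.64 ± 0.51 and LSG1, a GTPase of late large subunit assembly, was next at 0.26 ± 0.30 (SD, n = 3). Mitochondrial ribosomal proteins, 73 genes that serve a separate ribosome, had a median of -0.28, with 27 lower and 1 higher at an unadjusted p under 0.05, against the same 13.0% and 7.02%. MRPL35 and MRPS27 were the lowest at -0.90 ± 0.62 and -0.86 ± 0.47, and MRPL39 and MRPL44 the highest at 0.42 ± 0.26 and 0.22 ± 0.39 (SD, n = 3). The cytosolic proteins were therefore not alone in having a median below that of all tested genes.

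**Figure D3:**
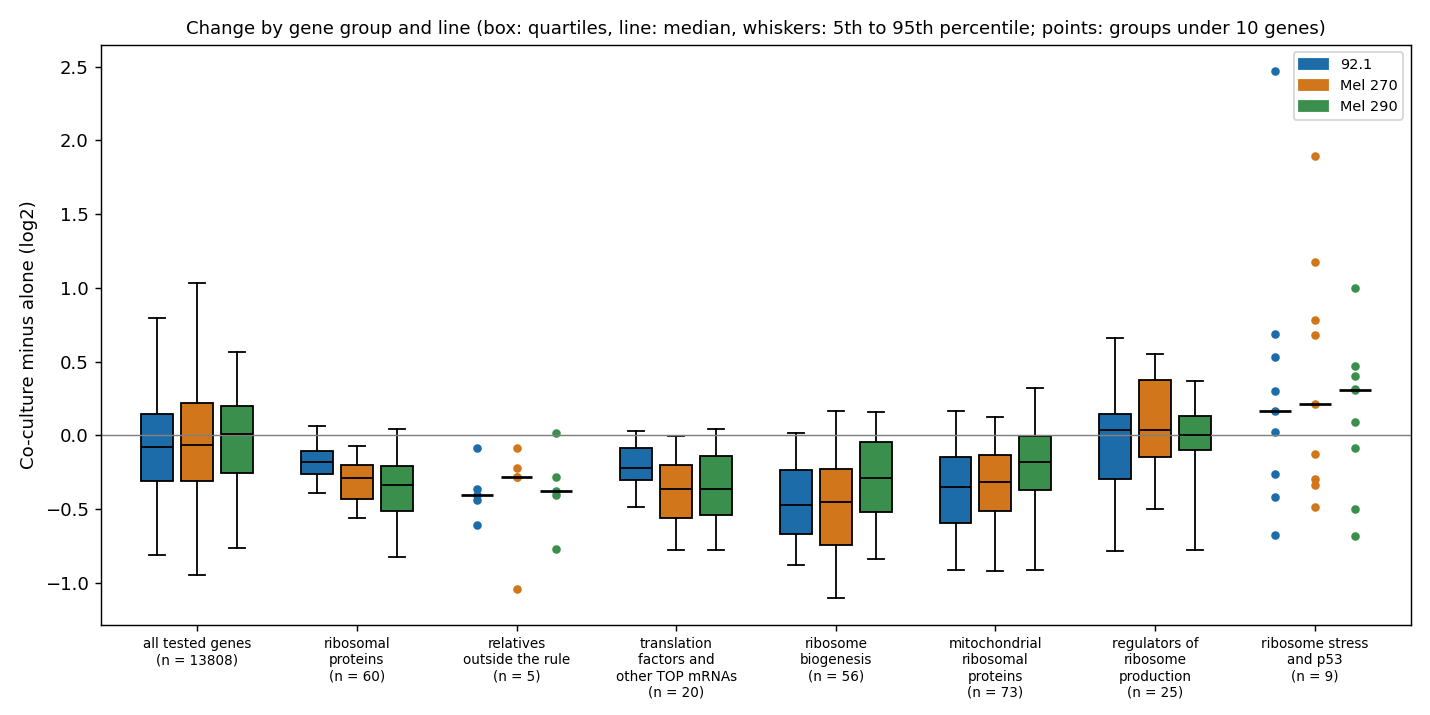
Log2 signal in co-culture minus that alone (y axis) by gene group (x axis) and line; boxes span the quartiles with the median as a line and whiskers from the 5th to the 95th percentile, and groups under 10 genes are drawn as points with the median as a bar. The ribosomal protein boxes are short and lie below 0 in every line, and those of biogenesis genes lie lower in 92.1 and Mel 270 than in Mel 290.

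Regulators of ribosome production, 25 genes tested, had a median difference of -0.01, which was above 0 under cyclic loess, with centred arrays and without 92.1 or Mel 270. By line the medians were 0.0365 in 92.1, 0.035 in Mel 270 and 0.0008 in Mel 290. The list pools drivers such as MYC with inhibitors such as DDIT4, so its median gives no direction for ribosome production. At an unadjusted p under 0.05, 2 genes were lower and 4 higher, against 13.0% and 7.02% of all tested genes. MYC, the transcription factor that drives ribosome production, read 10.88 alone and 10.05 in co-culture in 92.1, 10.35 and 9.07 in Mel 270, and 10.66 and 9.88 in Mel 290. All co-culture arrays lay below all arrays alone, with a mean difference of -0.96 ± 0.27 (SD, n = 3; limma adjusted p = 0.0781). EIF4EBP2, a repressor of the cap-binding factor, had a mean of -1.05 ± 1.13 that came mostly from Mel 290, where it read 9.52 alone and 7.18 in co-culture. DDIT4 and SESN2, both inhibitors of mTOR signalling, were the highest, at 1.04 ± 0.87 and 0.73 ± 0.64 (SD, n = 3). Both were uneven between lines and largest in 92.1. In the order 92.1, Mel 270 and Mel 290, DDIT4 differed by 1.92, 1.03 and 0.17. SESN2 differed by 1.38, 0.11 and 0.71. MTOR itself differed by -0.01 ± 0.05, LARP1 by -0.25 ± 0.22 and the S6 kinase gene RPS6KB1 by 0.15 ± 0.11 (SD, n = 3); these 3 are given for their role, outside the rule for named genes.

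Genes of ribosome stress and p53, 9 tested, had a median difference of 0.17 in 92.1, 0.21 in Mel 270 and 0.31 in Mel 290, while the median of their means over lines was 0.03, 0.16 without Mel 270 and 0.20 without Mel 290. This list too pools genes of opposite roles, such as CDKN1A and PPM1D, so its medians give no direction for p53 activity. At an unadjusted p under 0.05, 0 were lower and 2 higher, against 13.0% and 7.02% of all tested genes. CDKN1A, the cell cycle inhibitor that p53 induces, read 8.53 alone and 9.21 in co-culture in 92.1, 8.60 and 10.50 in Mel 270, and 7.22 and 8.22 in Mel 290. It was higher in each line, by 1.19 ± 0.63 on average (SD, n = 3; limma adjusted p = 0.106). GDF15, a stress cytokine and p53 target, had a mean of 0.87 ± 1.40 that came from 92.1, where it read 8.04 and 10.52. The lowest were PPM1D, a phosphatase that restrains p53, at -0.22 ± 0.27 and MAP3K20, a sensor of stalled ribosomes, at -0.19 ± 0.84 (SD, n = 3).

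Single ribosomal protein genes also differed in level between lines, whatever the culture, but less often than genes in general. Each line was set against the mean of the other 2 in the same fit. By limma at an adjusted p under 0.05, 6.67% of the 60 were called for 92.1, 1.67% for Mel 270 and 16.7% for Mel 290. Of all tested genes, 15.9%, 14.4% and 26.2% were called. Over all tested genes the median contrast was -0.03, 0.02 and 0.00 for 92.1, Mel 270 and Mel 290. Over the 60 genes it was 0.18, 0.04 and -0.12. In arrays alone these medians were 0.11, 0.07 and -0.08, and in co-culture 0.23, 0.00 and -0.16. With each array centred, the median was 0.10 for 92.1 and -0.03 for Mel 290. Mel 290 is also the line with low pigment genes and, per the labels, the one that was confluent when the medium was changed; the part of either in these differences was not tested. The residual spread in this fit is the unequal response of the lines, not repeat cultures.

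In 92.1, 3 ribosomal protein genes were higher and 1 lower by limma at an adjusted p under 0.05, against 9.73% and 6.18% of all tested genes. RPS23 was higher by 1.19 ± 0.13 (SE; limma adjusted p = 0.00965), RPL7A by 0.69 ± 0.14 (SE; limma adjusted p = 0.0334) and RPS24 by 0.56 ± 0.13 (SE; limma adjusted p = 0.0452). RPS27L was lower, at -0.90 ± 0.16 (SE; limma adjusted p = 0.0251). Without Mel 290 the counts were 1 higher and 0 lower, and without Mel 270 they were 4 and 2. In Mel 270, 0 genes were higher and 1 lower, against 6.83% and 7.62%. That gene was RPS24, at -0.67 ± 0.13 (SE; limma adjusted p = 0.0332). Without 92.1 the counts were 1 higher and 1 lower.

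In Mel 290, 2 genes were higher and 8 lower by limma at an adjusted p under 0.05, against 11.3% and 14.9% of all tested genes, so neither share exceeded that of genes in general. RPL17, which sits at the exit of the peptide tunnel, was higher by 1.06 ± 0.15 (SE; limma adjusted p = 0.00892). It read 9.36 alone and 9.48 in co-culture there, against 8.25 to 8.47 on the other 4 arrays. RPS27L was higher by 0.83 ± 0.16 (SE; limma adjusted p = 0.0197), which together with its low level in 92.1 gave 3 separate levels for the lines. RPL10 was lower, at -1.19 ± 0.23 (SE; limma adjusted p = 0.0202). The others that were lower were RPS9 at -0.79, RPS27 at -0.74, RPS15A at -0.74, RPS23 at -0.73, RPL11 at -0.66, RPS21 at -0.56 and RPS20 at -0.52, with adjusted p from 0.0160 to 0.0393. For RPS23, Mel 290 was close to Mel 270, at 8.82 alone and 7.98 in co-culture against 8.99 and 8.17. Its contrast rests largely on the high level of 92.1, which read 10.07 and 9.29.

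RPS27 and its relative RPS27L thus stood on opposite sides in Mel 290. RPS15A, a protein of the small subunit, read 12.23 alone and 11.98 in co-culture in 92.1, 12.11 and 11.76 in Mel 270, and 11.51 and 11.06 in Mel 290. RPS20, of the head of the small subunit, read 12.70 and 12.59 in 92.1, 12.50 and 12.28 in Mel 270, and 12.08 and 11.91 in Mel 290. RPS21 read 8.98 and 8.74 in 92.1, 8.99 and 8.63 in Mel 270, and 8.41 and 8.16 in Mel 290. For these 3 genes both arrays of Mel 290 were below all arrays of the other lines. The count of 8 lower was 5 with each array centred, 1 without 92.1 and 4 without Mel 270, and the count of 2 higher was 1 without 92.1.

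**Figure D4:**
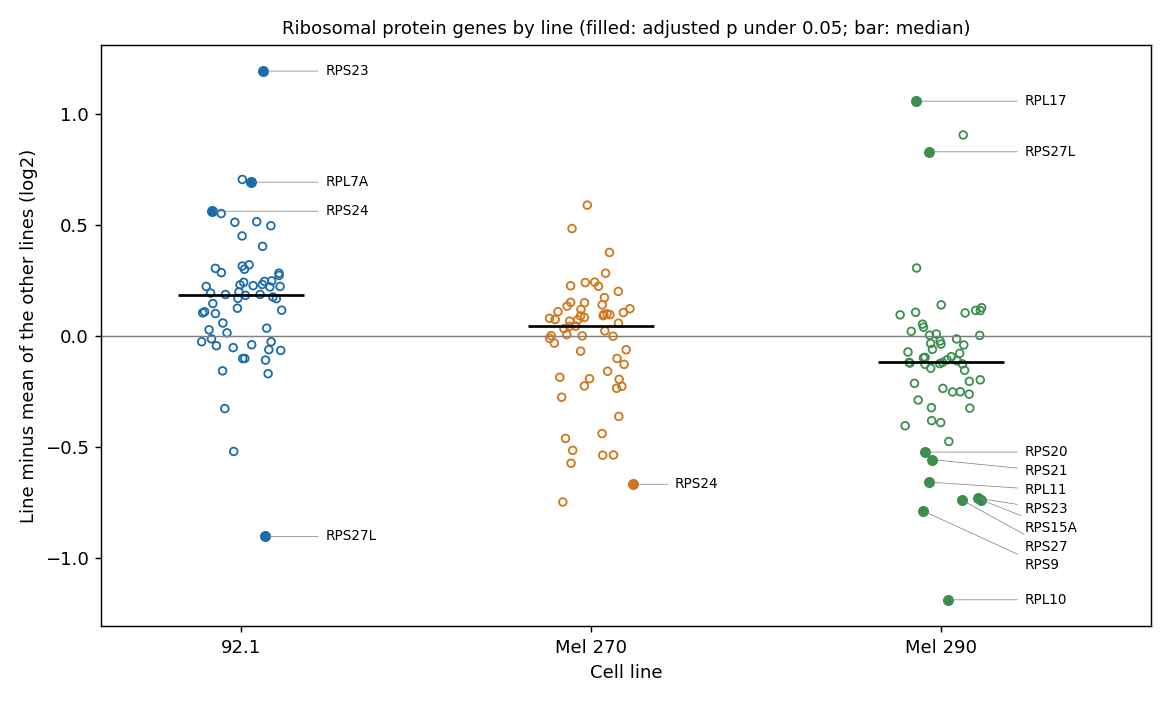
Log2 signal of each line minus the mean of the other lines (y axis) for the 60 tested ribosomal protein genes, by line (x axis); filled points have a limma adjusted p under 0.05 and are named, open points do not, and bars mark the medians of 0.18, 0.04 and -0.12. Most points lie within 0.5 of 0, and Mel 290 has the most filled points.

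Of the 61 genes, 21 had several probe sets. In 19 of these every probe set was lower in co-culture on average, and in RPS9 and RPS15 the probe sets differed in sign. For RPS15 the brighter probe set gave -0.21 and the dimmer one 0.11. Ribosomal protein genes have many processed pseudogenes whose transcripts can bind the same probes, so values of single genes are uncertain in that respect.

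**Figure D5:**
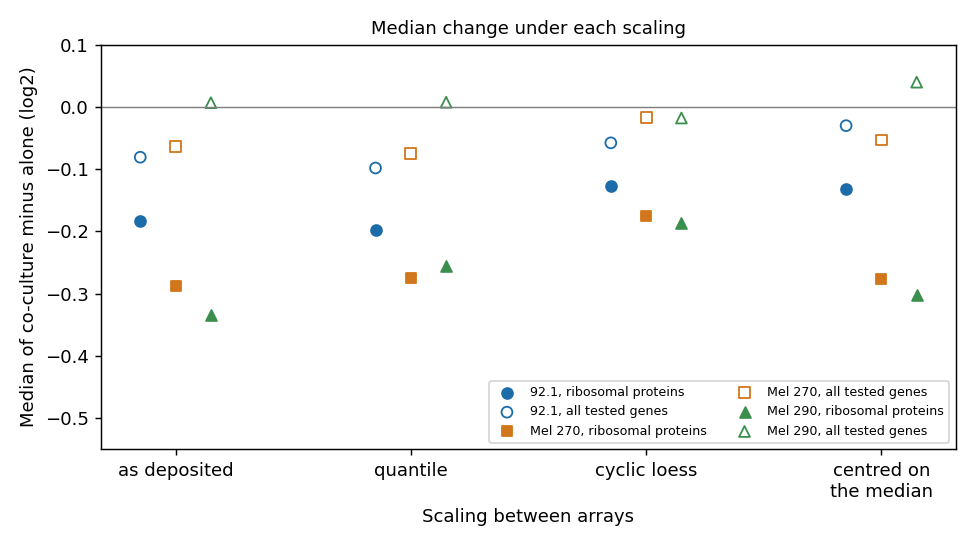
Median log2 signal in co-culture minus that alone (y axis) over the ribosomal protein genes and over all tested genes in each line, for the values as deposited and 3 rescalings (x axis). The medians of the ribosomal protein genes stay below those of all tested genes in each line and scaling, closest under cyclic loess, where they are -0.13 in 92.1, -0.18 in Mel 270 and -0.19 in Mel 290.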

How the data were processed

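The authors deposited log2 values between 1.49 and 13.89, which Affymetrix Expression Console 1.2.0.20 produced per the submitters' processing notes. How probes were background-corrected, summarized and normalized is not given in the sources used here, and no rescaling was applied. Probe sets were named from the platform annotation where it gave 1 symbol (19460 of 33297). The 13808 genes at or above the filter were fitted with limma 3.58.1 in R 4.3.3 (lmFit and eBayes, cell line plus culture), with Benjamini-Hochberg adjustment over all of them at 0.05. The arrays were paired because each line is present in both groups. The fit had 2 residual degrees of freedom and a prior worth 3.10. The fit was also run on simulated data, with an outcome not given here. The smallest simulated difference was larger than the median difference of the ribosomal protein genes. That run therefore cannot tell whether differences of their size would be found. P-values measure the spread between 3 lines, not between repeat cultures, and the number of arrays limits the precision. The members and lists were chosen with earlier results of these data known. Values on every array are given for genes called in any contrast, the 4 lowest and 4 highest mean differences, the paralogs, members with roles outside the ribosome, and the extremes by line; of each list, the 2 highest and 2 lowest are named.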

Additional observations from a re-analysis of the deposited data

How the results depend on the processing

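No ribosomal protein gene passed the adjusted test for co-culture under any alternative run, also without the line block. Under cyclic loess 1 gene was higher in 3 lines (0 as deposited), 12 had separate groups (22), 9 were lower at an unadjusted p under 0.05 (21), and 8, 20 and 22 were at least 1.2-fold lower in 92.1, Mel 270 and Mel 290; the median difference was -0.17 for the mean of the lines, -0.18 in Mel 270 and -0.19 in Mel 290. Quantile normalization gave -0.26 in Mel 290. With centred arrays, 9 genes were 1.2-fold lower in 92.1, 13 were lower at an unadjusted p, and the Mel 290 contrast had 5 lower and a median of -0.0287, and the 92.1 contrast a median of 0.103. Without the replicate block, 7 genes were lower at an unadjusted p, and RPS23 and RPS24 had limma adjusted p = 0.999 and 0.808. With trend and robust variance, 6 genes were higher in 92.1, and 2 lower and 1 higher in Mel 270; cyclic loess and no filter also gave 2 lower there. Leaving out 1 line gave 6 to 8 genes lower at an unadjusted p, 27 to 39 with separate groups (38 without 92.1), in 92.1 0 to 2 lower and 1 to 4 higher, in Mel 270 0 to 1 higher, and in Mel 290 1 to 4 lower and 1 to 2 higher. For the counts under alternative settings, the shares of all tested genes are not given here. The sign of the regulators' median turned to 0.0271 under cyclic loess, 0.02 when centred, 0.023 without 92.1 and 0.009 without Mel 270. The p53 list's median was 0.163 without Mel 270 and 0.203 without Mel 290 (0.0267 with all lines). RPL41 turned to 0.0442 under quantile normalization, 0.133 under cyclic loess, 0.0266 when centred, 0.0476 without Mel 270 and 0.0392 without Mel 290. RPS27 turned to 0.0685 under cyclic loess, and RPS9 to 0.0429 there, 0.0481 without Mel 290 and 0.0278 with its lowest-mean probe set. RPS27L turned to -0.0285 without 92.1. The cause of these shifts was not tested, apart from leaving out a line, which leaves fewer arrays. The lowest-mean probe set, the paralogs left out, high-signal genes as background, and the alternatives of the unadjusted and separate-group counts were chosen after seeing the data.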
